A study of Homo sapiens with 108 samples.

Results

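SU-DHL6 is a human B cell lymphoma line of germinal centre type that carries the EZH2 Y641 mutation, per the series description. The arrays described here compared SU-DHL6 cells kept for 4 days with EPZ6438 at the lower of the study's doses, named LCC in the labels, with SU-DHL6 cells kept for 4 days in DMSO, the solvent. They were chosen by the cell line, dose and day in the sample labels, and number 6, 3 with LCC and 3 with DMSO, named replicates A, B and C, out of 36 groups of 3 arrays in the series. Of the 54675 probe sets on the array, 41097 name 1 gene, and they stand for 19775 genes.

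The study treated SU-DHL6 and 3 other non-Hodgkin lymphoma lines with EPZ6438 and profiled their RNA. Every line had DMSO, LCC and 10xLCC groups of 3 arrays at days 2, 4 and 6. WSU-DLCL2 and Karpas422 share the Y641 mutation with SU-DHL6, and the last line, Pfeiffer, does not have it. The concentration that LCC stands for is set for each line and was not stated in the labels used here, and no label states whether replicates were separate cultures, so p-values measure only the spread between these arrays.

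EZH2 is the catalytic subunit of Polycomb repressive complex 2 (PRC2), with EED and SUZ12 as its core partners. The complex methylates lysine 27 of histone H3, a mark that holds genes in a repressed state, and EZH1 is a less active relative of EZH2. In the germinal centre, EZH2 is high in dividing B cells and represses cell cycle inhibitors and genes of later B cell stages, and mutations at Y641 alter its substrate preference so that trimethylated lysine 27 accumulates. EPZ6438, known as tazemetostat, competes with the methyl donor at the EZH2 active site, so it blocks the enzyme without removing the protein.

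The cells had the marker levels of a B cell line in both groups. The 8 B cell marker genes on the array lay between 9.45 and 13.72 (log2 intensity, group means) in DMSO, with MS4A1, which encodes CD20, the highest, and the 18 germinal centre genes had a median level of 10.76. The 11 T and NK cell markers had a median of 6.15 in DMSO and 6.02 with LCC, the 8 myeloid markers of 4.91 and 4.83, and none of the T and NK cell, myeloid, epithelial and stromal, endothelial or erythroid markers tested was called. The highest of these other markers in DMSO was COL1A1, at 8.80, and the 2 erythroid markers had a median of 7.09. Of the 8 B cell markers 2 were called as risen and 2 as fallen, 50% of the list against 8.41% of all genes tested. Without DMSO replicate C none of the 8 was called as fallen. The summed intensity of the B cell markers ranged from 33400 to 39500 over the DMSO arrays and from 33900 to 34900 over the LCC arrays, against 870 to 949 and 808 to 941 for the T and NK cell markers. In bulk RNA, fewer cells of a type and less RNA per cell cannot be told apart.

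Some technical values moved with the groups. The 3′ minus 5′ difference (log2) of the beta-actin control probe sets, a sign of RNA integrity and labelling, was -0.103, -0.137 and -0.110 on the DMSO arrays and -0.020, -0.030 and 0.065 on the LCC arrays, so the groups did not overlap, and with this difference as a covariate 1598 genes were called in place of 1590, 1328 of them the same. Each of the 6 arrays lay between 0.150 and 0.212 (root mean square over genes, log2) from the other replicates of its group. Outside day 4, SU-DHL6 DMSO day 2 replicate A stood apart at 0.468, so day 2 values are given with and without it where counts rest on them.

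The promoters of 3 of the largest rises and of TRIP6, the large fall with the smallest error, are shown because PRC2 acts mainly at promoters rich in CpG dinucleotides. They are the 120 bases just before the RefSeq transcription start (GRCh38.p14), from 5′ to 3′ on the gene's strand, with each CG in capitals. TMEM200A and SLC1A1 have 13 and 14 CG in these bases, and SESN3 and TRIP6 have 4 and 5. The genes were picked from the largest changes among those with 1 listed start.
TMEM200A, chr6:130365897-130366016, plus strand: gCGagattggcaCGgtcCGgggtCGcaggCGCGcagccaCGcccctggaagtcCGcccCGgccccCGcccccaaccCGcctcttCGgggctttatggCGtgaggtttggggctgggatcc
SLC1A1, chr9:4490348-4490467, plus strand: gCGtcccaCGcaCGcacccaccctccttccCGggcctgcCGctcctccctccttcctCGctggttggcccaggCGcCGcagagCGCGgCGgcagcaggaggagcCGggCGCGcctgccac
SESN3, chr11:95232476-95232595, minus strand: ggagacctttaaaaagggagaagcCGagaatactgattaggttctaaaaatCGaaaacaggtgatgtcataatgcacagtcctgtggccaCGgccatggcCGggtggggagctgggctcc
TRIP6, chr7:100867267-100867386, plus strand: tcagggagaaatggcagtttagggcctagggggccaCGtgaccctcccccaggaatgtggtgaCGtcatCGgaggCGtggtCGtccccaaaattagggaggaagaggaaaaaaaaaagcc

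Measures of CpG content gave no single picture. Over the 250 bases before the start, the median count of CG was 20 for the risen genes, 21 for the fallen genes and 18.4 for all genes tested, and 71.6%, 72.2% and 63.1% had 15 or more. For the genes that rose at least 2-fold the median was 19 and the share 65.8%. The ratio of observed to expected CpG had medians of 0.76 for risen, 0.77 for fallen and 0.75 for all genes, and 0.70 for genes that rose at least 2-fold. These figures are over protein-coding genes off chromosome 8 with a RefSeq promoter, 846 of 965 risen, 400 of 463 fallen and 13028 of 15442 tested, with several starts averaged, and they are a description without a test.

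The main comparison asked which genes had changed after 4 days at the low dose. More genes rose than fell, and the rises were larger. The largest rises were those of TMEM200A, the glutamate transporter gene SLC1A1, the mTORC1 restraint gene SESN3 and the BMP signal transducer SMAD1, and the largest falls those of ALPL, NFKB2, HNRNPLL and TRIP6. Of 18895 genes tested, 1590 were called at an adjusted p below 0.05 (limma over the 27 SU-DHL6 arrays, Benjamini-Hochberg), which is 8.41%. Of these 1096 rose, 5.80% of the genes tested, by a median of 0.58 (log2), and 494 fell, 2.61%, by a median of -0.43. At least 2-fold changes numbered 145 up and 11 down, and the median change of all genes was -0.03. In 1545 of the called genes all 3 LCC arrays were above or all were below every DMSO array, which held for 5180, or 27.4%, of all genes tested.

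**Figure D1:**
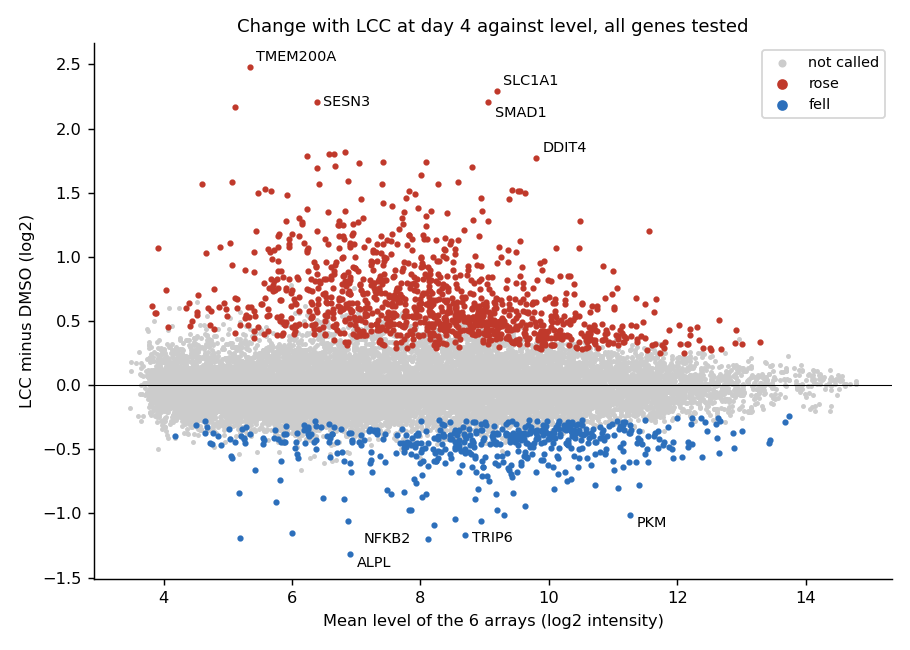
Change with LCC at day 4 (LCC minus DMSO, log2, y axis) against the mean level of the 6 arrays (log2 intensity, x axis), 1 point per gene tested, in red for the 1096 that rose, blue for the 494 that fell and grey for the rest. The rises reach 2.48 for TMEM200A, and the falls stop at -1.32 for ALPL.

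The count of falls depended on single arrays more than the count of rises did. It was 206 without DMSO replicate C, 247 without LCC replicate C and 304 when the 6 arrays were fitted alone, while the rises numbered 869, 955 and 1148 in the same fits. DMSO replicate C was the highest of the 3 DMSO arrays in 354 of the 494 fallen genes (71.7%) and in 31.7% of all genes tested. Replicate B was the lowest in 264 of them (53.4%), against 31.3%. For the 1096 risen genes these shares were 32.7% and 21.4%. LCC replicate C was the lowest of the 3 LCC arrays in 360 of the 494 fallen genes (72.9%). This held for 46.7% of all genes tested and for 59.3% of the risen genes. The part of these arrays in the falls was not tested beyond leaving them out.

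Risen and fallen genes started from different levels. On the DMSO arrays of day 2, which entered the fit through its estimate of the spread but not the difference at day 4, the genes that rose at least 2-fold had a median level of 6.50 (log2) and all genes tested one of 7.13. The risen genes as a whole had a median of 7.71 and the fallen genes of 9.40. A level below 6 was found for 28.9% of all genes tested and for 33.1% of the genes that rose at least 2-fold. It was found for 14.7% of all risen genes and for 7.49% of the fallen genes. These day 2 levels include DMSO replicate A, the array that stood apart.

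TMEM200A, a transmembrane protein gene on chromosome 6, had the largest rise. Its levels were 4.09, 4.13 and 4.10 on the DMSO arrays and 6.67, 6.59 and 6.47 on the LCC arrays. All 3 LCC arrays lay far above the DMSO arrays, and each group covered a narrow range. The DMSO levels were close to the log2 level of 4 that a gene had to reach on at least 3 arrays to be tested. How much of so low a level is background was not tested. The change was 2.48 ± 0.19 (log2, SE, n = 3 per group, adjusted p = 3.2e-09), 5.56-fold.

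SLC1A1 on chromosome 9 encodes a transporter of glutamate, aspartate and cysteine. It stood at 7.97, 8.14 and 8.02 in DMSO and at 10.39, 10.34 and 10.27 with LCC, a rise of 2.29 ± 0.16 (4.90-fold), with both of its probe sets called. ABCA1 on chromosome 9, which exports cholesterol from cells, rose by 1.74 ± 0.13 from 7.09, 7.47 and 7.08 to 9.10, 8.95 and 8.81. NIPAL2 on chromosome 8 rose by 1.71 ± 0.12, with 2 of its 3 probe sets higher and 1 called.

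SESN3 and DDIT4 restrain the growth kinase mTORC1 under stress or nutrient limitation. SESN3 on chromosome 11 lay at 5.27, 5.19 and 5.37 in DMSO and at 7.42, 7.30 and 7.76 with LCC, a rise of 2.21 ± 0.19, and 2 of its 6 tested probe sets were called. The DMSO arrays themselves were lower at day 4 than at day 2, by -1.15. DDIT4 on chromosome 10 had the smallest error among the 15 largest rises. It went from 8.80, 8.98 and 8.97 to 10.72, 10.68 and 10.67. It rose by 1.77 ± 0.09 (adjusted p = 4.8e-12), and its DMSO level was higher at day 4 than at day 2 by 0.66.

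Signalling and transcription genes were also among the 15 largest rises. SMAD1 on chromosome 4, which carries bone morphogenetic protein signals to the nucleus, went from 7.73, 7.98 and 8.14 to 10.19, 10.10 and 10.20, a rise of 2.21 ± 0.21 seen by all 3 of its probe sets. ZNF521 on chromosome 18, a zinc finger factor known to oppose EBF1, went from 6.15, 6.27 and 6.09 to 8.23, 7.93 and 7.56, a rise of 1.73 ± 0.24. SH3BP5 on chromosome 3, which binds and inhibits the kinase BTK of B cell receptor signalling, rose by 1.74 ± 0.13, with 1 of 2 probe sets called. KLHL14 on chromosome 18, a Kelch-like protein of B cells, rose by 1.70 ± 0.16.

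The other large rises were metabolic and RNA-related genes. ABAT on chromosome 16, the transaminase that degrades GABA, went from 5.92, 6.01 and 5.83 to 7.85, 7.85 and 7.51, a rise of 1.82 ± 0.13 in all 3 probe sets. AIG1 on chromosome 6, a lipid hydrolase, rose by 2.17 ± 0.13 from 3.95, 4.10 and 4.00 to 6.23, 6.12 and 6.21, but its other 2 probe sets did not move the same way. The DMSO levels of AIG1, like those of TMEM200A, were close to the level set for testing a gene. PON2, an antioxidant lactonase on chromosome 7, rose by 1.80 ± 0.12, AGO4, an Argonaute protein of small RNA silencing on chromosome 1, by 1.80 ± 0.11, and TCEAL4 on chromosome X by 1.79 ± 0.17. All 15 kept their call in every one of the 15 other fits by gene, including limma's test against a change of 0.5.

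**Figure D2:**
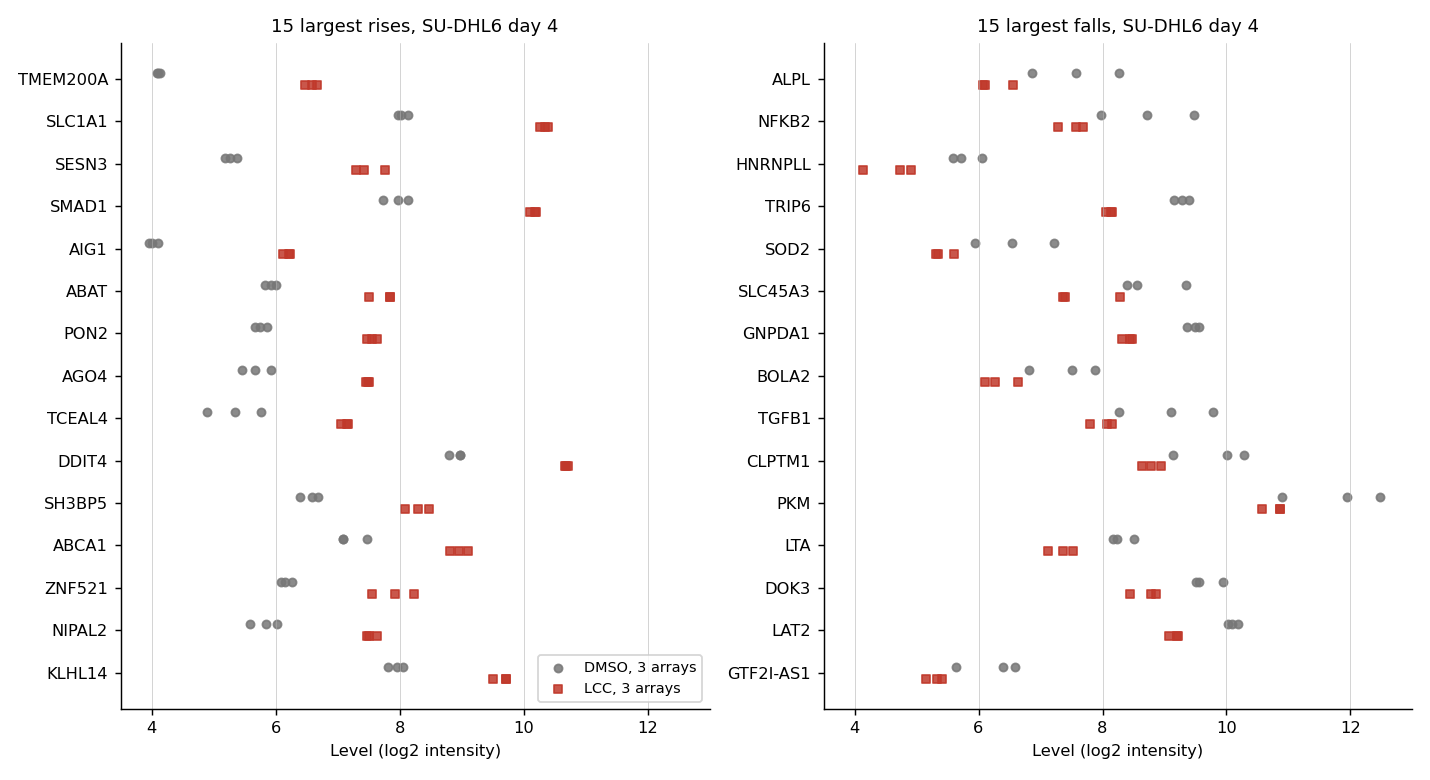
Levels (log2 intensity, x axis) of the 15 genes with the largest rise (left) and the 15 with the largest fall (right) on each of the 3 DMSO arrays (grey circles) and 3 LCC arrays (red squares) at day 4. For all 15 rises the LCC arrays lie clear of the DMSO arrays by more than the range of either group, while for several falls, such as PKM with DMSO arrays from 10.90 to 12.48, the DMSO arrays are spread widely and reach close to the LCC arrays.

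The falls were smaller and differed in how evenly the DMSO arrays lay. TRIP6 on chromosome 7, a LIM domain adaptor of the zyxin family, had the smallest error among the 15 largest falls, with arrays at 9.16, 9.29 and 9.40 in DMSO and 8.15, 8.13 and 8.06 with LCC. It fell by 1.17 on the log2 scale (SE 0.10, adjusted p = 8.5e-09). GNPDA1 on chromosome 5, a deaminase of glucosamine phosphate, went from 9.37, 9.49 and 9.56 to 8.48, 8.44 and 8.32, a change of -1.06 ± 0.13. LAT2 on chromosome 7, a membrane adaptor of B cell receptor signalling, went from 10.03, 10.18 and 10.09 to 9.21, 9.20 and 9.08, a change of -0.94 ± 0.11, with 1 of 2 probe sets called. For these 3 genes the groups were separated by more than the range within either group.

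In other falls the DMSO arrays covered more than 1 log2 unit. ALPL on chromosome 1, the tissue-nonspecific alkaline phosphatase, lay at 7.57, 6.86 and 8.26 in DMSO and at 6.56, 6.07 and 6.11 with LCC, a change of -1.32 ± 0.21. PKM on chromosome 15, the last enzyme of glycolysis, lay at 11.94, 10.90 and 12.48 in DMSO and at 10.87, 10.87 and 10.57 with LCC, a change of -1.01 ± 0.22. Its DMSO replicate B came close to the LCC arrays, and with the 6 arrays fitted alone its adjusted p (limma) was 0.066. TGFB1 on chromosome 19, a cytokine that restrains B cell growth, lay at 9.10, 8.26 and 9.78 against 8.08, 8.15 and 7.79, a change of -1.04 ± 0.21, and CLPTM1 on chromosome 19 changed by -1.01 ± 0.17 with the same order of arrays. TGFB1 too lost its call with the 6 arrays fitted alone (adjusted p = 0.05 after rounding, limma). SOD2 on chromosome 6, the mitochondrial superoxide dismutase, lay at 7.21, 5.95 and 6.54 against 5.60, 5.32 and 5.34. It changed by -1.15 ± 0.28, and by -0.83 (adjusted p = 0.093, limma) without DMSO replicate A.

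Some of the other large falls rested on 1 probe set or on 1 array. HNRNPLL on chromosome 2, a regulator of alternative splicing in lymphocytes, changed by -1.19 ± 0.22, but only 1 of its 4 probe sets was called and the mean of its probe sets changed by -0.36 (adjusted p = 0.13, limma). SLC45A3, BOLA2, LTA, DOK3 and GTF2I-AS1 changed by -1.09, -1.06, -0.97, -0.97 and -0.91. BOLA2 has near-identical copies on chromosome 16 that the probes may not separate, and GTF2I-AS1 lost its call without DMSO replicate A (-0.71, adjusted p = 0.064, limma). Against a change of 0.5, limma kept 4 of the 15 falls.

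The RNA of the drug's target and of its partners was not called. EZH2 lay at 10.98, 11.19 and 11.02 in DMSO and at 11.08, 11.06 and 10.87 with LCC, and the groups overlapped (-0.06 ± 0.09, adjusted p = 0.81, limma). EED, SUZ12 and EZH1 differed by -0.04, -0.05 and 0.19 and were not called. Of the 15 PRC2 subunits and cofactors tested, JARID2, which helps recruit the complex, rose by 0.58 ± 0.11, and PHF19, a Tudor domain cofactor, changed by -0.44 ± 0.10, a call lost without DMSO replicate C. Among 18 genes of Polycomb repressive complex 1, CBX7, which reads methylated lysine 27, rose by 0.69 ± 0.10 and PCGF5 by 0.62 ± 0.11, and CBX2 changed by -0.37 ± 0.11, a call lost without DMSO replicate A, B or C or LCC replicate C. Of 26 other chromatin genes mutated or used in lymphoma, HDAC9, a class II histone deacetylase, rose by 1.17 ± 0.12 and SMARCA2 by 0.54 ± 0.10. SMARCB1, a core subunit of the SWI/SNF remodeller, changed by -0.81 ± 0.15, with DMSO arrays at 10.51, 9.95 and 10.97 and LCC arrays at 9.77, 9.66 and 9.58.

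The list of B cell lineage transcription factors, like the other lists, was chosen with earlier results of these data known. Its share of calls is a description and not independent support. Of 25 tested, 9 rose (36%) and 3 fell (12%), and their median change was 0.09 against -0.03 for all genes. Over all genes tested 5.80% rose and 2.61% fell, the shares to set beside the counts of every list. TCF4, an E protein, rose by 1.35 ± 0.17, ID2, which blocks E proteins, by 1.28 ± 0.10, MEF2C, a target of B cell receptor signals, by 1.17 ± 0.11, EBF1, which sets B lineage identity, by 0.90 ± 0.12 and FOXP1 by 0.64 ± 0.10. ID2 lay at 9.72, 10.09 and 9.73 in DMSO and at 11.12, 11.06 and 11.19 with LCC, and EBF1 at 9.31, 9.57 and 9.48 and 10.39, 10.37 and 10.28, both without overlap and with all of their probe sets called. SATB1, a chromatin organizer of lymphocytes, rose by 0.41 ± 0.11, a call lost without LCC replicate A. The 3 falls, RUNX3, SPI1 and SPIB at -0.55, -0.47 and -0.40, are named because of their values, and none of them was called without DMSO replicate C or without LCC replicate C.

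Genes of the B cell stages did not move as blocks. BCL6, the master repressor of the germinal centre, was level at 12.41, 12.46 and 12.32 in DMSO and 12.48, 12.50 and 12.37 with LCC. Of 18 germinal centre genes 4 rose and none fell, the largest being BACH2 at 0.52 ± 0.12 and LMO2 at 0.40 ± 0.08. MME and RGS13 at 0.38 and 0.32 lost their calls without DMSO replicate A, among others. Among 19 plasma cell genes 2 rose and 3 fell. PRDM1, which drives plasma cell differentiation, differed by -0.13 (adjusted p = 0.71, limma) and IRF4 by 0.31 (0.18), MZB1 changed by -0.49 ± 0.09 and PIM2 by -0.44 ± 0.10, and the chaperone HSP90B1 rose by 0.73 ± 0.14 and ELL2 by 0.58 ± 0.13. CD28 changed by -0.66 ± 0.16, a call lost without DMSO replicate C or LCC replicate B. Of 20 memory and activated B cell genes, the death receptor gene FAS rose by 1.45 ± 0.22 and HHEX, a homeobox factor of memory B cells, by 0.84 ± 0.13.

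Of 22 genes of B cell receptor signalling 4 were called as risen and 3 as fallen. The falls numbered 0 without DMSO replicate C and 1 with the 6 arrays fitted alone, and 1 of the 4 rises is CD79B, whose probe sets disagree. BANK1, a scaffold of the receptor, rose by 0.96 ± 0.10, the kinase FYN by 0.87 ± 0.15 and the protein kinase C gene PRKCB by 0.50 ± 0.10. CD79A, a signalling chain of the receptor, lay at 12.98, 12.49 and 13.25 in DMSO and 12.46, 12.40 and 12.27 with LCC (-0.53 ± 0.12), and its call, like that of CD81 at -0.41 ± 0.09, was lost without DMSO replicate C. CD79B, the partner chain, was called at 0.32 ± 0.09 by 1 of 3 probe sets, and the mean of its probe sets gave -0.03, so no direction is given for it. Among 16 inhibitors of this pathway 2 rose and 2 fell. FCGR2B, the inhibitory Fc receptor, rose by 0.68 ± 0.09, and DOK3, an inhibitory adaptor, changed by -0.97 ± 0.14 from 9.55, 9.50 and 9.95 to 8.79, 8.87 and 8.44.

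Some surface receptors of memory B cells and of homing rose. FCRL4, an inhibitory receptor of tissue memory B cells, went from 5.55, 5.59 and 5.49 to 6.65, 6.50 and 5.97, a rise of 0.83 ± 0.15 in which LCC replicate C lagged. CCR7, which guides lymphocytes to lymph node T zones, went from 4.78, 4.89 and 4.74 to 5.79, 5.42 and 5.92, a rise of 0.90 ± 0.21. CNR1, the cannabinoid receptor, started higher, at 10.36, 10.39 and 10.40, and reached 11.34, 11.29 and 11.31, a rise of 0.93 ± 0.11. CCR7 and CNR1 were the 2 of 19 homing receptors that rose, and FCRL4 and FCGR2B the 2 of 13 Fc receptor and Fc receptor-like genes, with no falls in either list.

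Genes of quiescence and nutrient stress gave the highest share of rises among the lists, 12 of 26 (46.2%, against 5.80% of all genes tested). None was called as fallen, and the median was 0.30. Besides SESN3 and DDIT4, TP53INP1, which promotes autophagy and cell death, rose by 1.57 ± 0.17 (1 of 3 probe sets called), the sestrin SESN1 by 1.18 ± 0.13 and the antiproliferative gene BTG1 by 0.68 ± 0.08. TXNIP, which blocks glucose uptake, went from 9.48, 9.68 and 9.63 to 10.18, 10.23 and 10.06, a rise of 0.56 ± 0.08 in all 3 probe sets. With single arrays left out, 9 to 12 members rose, and with probe sets averaged 8.

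Cell cycle lists differed in how many members were called, against 8.41% of all genes tested. Of 10 CDK inhibitor and pocket protein genes only CDKN1B, which encodes p27, rose, from 8.45, 8.63 and 8.30 to 9.24, 9.15 and 9.12 (0.71 ± 0.13, adjusted p = 7.5e-04, limma). CDKN1A differed by -0.17 and CDKN2A by -0.06, neither called. Among 24 cyclin and E2F genes, CCNG2, a cyclin of arrested cells, rose by 0.81 ± 0.11, and 4 fell, 16.7% of the list against 2.61% of all genes. E2F2 changed by -0.64 ± 0.09, the G1 cyclin CCND3 by -0.57 ± 0.08, CDC25A by -0.35 ± 0.08 and CDK2 by -0.38 ± 0.11, the last lost without DMSO replicate A or C or LCC replicate A or C.

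The DNA replication list had mostly lower means, while few of its members passed the test. Of 35 genes 31 had a lower mean with LCC, and the median was -0.17, against -0.03 for all genes tested. None rose and 3 fell, RRM2 by -0.37 ± 0.09, POLD1 by -0.31 ± 0.08 and CDC6 by -0.28 ± 0.08. These are 8.57% of the list, where 2.61% of all genes fell and 8.41% were called either way. Without DMSO replicate C or without LCC replicate C 1 member fell, and with arrays centred on bright genes 8. Of 38 mitosis genes PLK1 fell (-0.69 ± 0.15, lost without DMSO replicate C) and HMMR rose by 0.32, a call lost without any array but DMSO replicate B. Of 21 checkpoint genes RMI2 rose by 0.31, a call kept only without DMSO replicate B or LCC replicate C among the 6, and CHEK1 differed by -0.15 (adjusted p = 0.60, limma). MYC lay at 11.78, 11.55 and 11.81 in DMSO and at 11.82, 11.80 and 11.60 with LCC, and of 29 genes of the MYC network and ribosome biogenesis only MXI1, a MYC antagonist, rose (0.47 ± 0.10).

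Genes of cell death moved on both sides. Of 17 pro-apoptotic genes 3 rose, BMF by 0.51 ± 0.12, BCL2L11, which encodes BIM, by 0.44 ± 0.12 and PMAIP1 by 0.38 ± 0.10, but none of these 3 was called without DMSO replicate A. Of 12 anti-apoptotic genes the co-chaperone BAG3 rose by 1.10 ± 0.13, BCL2A1 by 0.75 ± 0.17 and the kinase PIM1 by 0.35 ± 0.09, and BCL2L1 changed by -0.35, a call kept only without DMSO replicate B. PIM1 lost its call without LCC replicate B. Of 23 p53 targets 4 rose and 1 fell. They were TP53INP1, FAS, SESN1 and GADD45A (0.49 ± 0.11), with DDB2 at -0.37 ± 0.10, a call kept only without DMSO replicate A.

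The NF-kB list had the largest share of falls among the lists, 8 of 23 (34.8%, against 2.61% of all genes tested). It had 3 rises (13%, against 5.80%) and a median of -0.13. TNF, the founding cytokine of its family, lay at 9.58, 9.57 and 9.64 in DMSO and 8.90, 8.67 and 8.67 with LCC (-0.85 ± 0.11). ICAM1, an adhesion ligand, lay at 9.24, 9.30 and 9.36 and 8.63, 8.49 and 8.36 (-0.81 ± 0.10), and LTA, which encodes lymphotoxin alpha, at 8.17, 8.23 and 8.51 and 7.36, 7.52 and 7.12 (-0.97 ± 0.15). In all 3 genes the groups were well separated. NFKB2, the precursor of the p52 subunit, changed by -1.20 ± 0.24 with DMSO arrays at 8.71, 7.97 and 9.48, NFKBIB by -0.52 ± 0.10 and LTB by -0.44 ± 0.09. The rises included BCL2A1 and IER3 (0.36 ± 0.10, lost without DMSO replicate A or C or LCC replicate A or B), and the list moved in both directions. Left-out arrays gave 7 to 8 falls and 1 to 4 rises.

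Among 26 TNF receptor and ligand genes 4 rose and 3 fell, the falls being TNF, LTA and LTB. TNFSF10, the death ligand TRAIL, rose by 1.14 ± 0.11 in all 3 probe sets and its relative FAS, the receptor for FAS ligand, from 6.39, 6.30 and 6.38 to 7.79, 7.66 and 7.97. TNFRSF21 differed by 0.14 (adjusted p = 0.65, limma). Of 26 cytokine and growth factor receptors 4 rose and 4 fell. TGFBR1, a receptor for TGF-beta, rose by 0.92 ± 0.13 and IFNGR1 by 0.40 ± 0.08, and IL2RG, the common gamma chain, changed by -0.84 ± 0.18, IL21R by -0.76 ± 0.12 and IL17RB by -0.44 ± 0.10.

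Some antigen presentation genes rose, and none was called as fallen. Of 17 MHC class II genes 4 rose, HLA-DOA by 0.66 ± 0.08, HLA-DPB1 by 0.45 ± 0.08, HLA-DMB by 0.43 ± 0.09 and HLA-DMA by 0.32 ± 0.08, and the list's median was 0.20. HLA genes are near-identical to each other in parts and vary between people, so their probe sets may be shared. Of 18 MHC class I and antigen processing genes 6 rose, with a median of 0.14. PSMB9, a subunit of the immunoproteasome, rose by 0.95 ± 0.15 and the peptide transporter TAP1 by 0.52 ± 0.10, while TAP2 (0.43), PSMB8 (0.39) and HLA-B (0.29) lost their calls without DMSO replicate A, LCC replicate A or LCC replicate B, fits in which 2 of the 18 rose. Of 40 interferon response genes CMPK2 rose by 1.28 ± 0.21 and IFITM2 by 0.42 ± 0.11 (lost without DMSO replicate C or LCC replicate C), and OAS1 changed by -0.85 ± 0.11. This was 7.50% of the list called, against 8.41% of all genes.

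Adhesion and second messenger genes held some of the larger rises. Of 27 integrin and adhesion genes 3 rose and 2 fell. ITGB1, the beta 1 integrin, lay at 8.63, 8.79 and 8.99 in DMSO and at 10.34, 10.28 and 10.31 with LCC (1.51 ± 0.14), ITGAV rose by 1.13 ± 0.14 and CD58, a ligand for T cells, by 0.56 ± 0.14, a call lost without DMSO replicate A. ITGB7, the gut homing integrin chain, changed by -0.51 ± 0.11. Of 25 genes of cAMP and GABA handling 6 rose and 1 fell. Next to ABAT these were PDE4B, which degrades cAMP, at 1.53 ± 0.28 (1 of 2 probe sets called), RAPGEF2, an exchange factor for RAP1, at 1.35 ± 0.16, PRKAR2B at 0.89 ± 0.16 and PDE4D at 0.61 ± 0.12. Of 17 RGS genes, which switch off G proteins, RGS16 changed by -0.61 ± 0.14, and RGS9 (0.63) and RGS13 (0.32) rose but not without DMSO replicate A. Of 23 MAPK feedback and immediate early genes DUSP10, IER2 and IER3 rose, by 0.53 ± 0.11, 0.46 ± 0.07 and 0.36 ± 0.10.

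Metabolic and stress lists held falls, and 1 rise, that of HSP90B1. Of 20 amino acid supply and ATF4 target genes 4 fell and none rose, all of them transporters. SLC7A5 changed by -0.59 ± 0.14, SLC1A4 by -0.49 ± 0.12, SLC3A2, the heavy chain partner of SLC7A5, by -0.42 ± 0.09 and SLC1A5 by -0.38 ± 0.12. Without DMSO replicate C or without LCC replicate C only 1 of them fell, and SLC3A2 alone was called in all 6 fits. Of 17 genes of the unfolded protein response, CRELD2 (-0.41 ± 0.09), PDIA4 (-0.39 ± 0.08), MANF (-0.31) and SDF2L1 (-0.31) fell. CRELD2 and PDIA4 kept their calls with each array left out, MANF lost its call without DMSO replicate B or C or LCC replicate B or C, and SDF2L1 lost its call in all 6 such fits. Of 24 glycolysis and hypoxia genes PKM, PFKP (-0.39 ± 0.10) and PFKM (-0.33 ± 0.09) fell, the latter 2 not without DMSO replicate C or LCC replicate C. Of 20 sterol and fatty acid synthesis genes FASN, the fatty acid synthase, fell (-0.64 ± 0.15), a call lost without DMSO replicate C. Of 15 clustered histone genes 4 rose and none fell, H2AC6 by 1.16 ± 0.13, H1-2 by 0.58 ± 0.12, H2AC8 by 0.47 ± 0.09 and H2BC12 by 0.40 ± 0.09, with a median of 0.30.

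Developmental genes, which PRC2 represses in many tissues, did not stand out from the 5.80% of all genes that rose. Of 39 homeobox and developmental regulators 1 rose, 2.56% of the list, namely HOXC6 by 0.42 ± 0.13, a call lost without DMSO replicate A or C or LCC replicate B or C. Of 28 neuronal genes MAP2 (3.57% of the list) rose by 0.41 ± 0.11, a call lost without DMSO replicate C or LCC replicate B or C. The medians of these lists were -0.09 and -0.11.

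**Figure D3:**
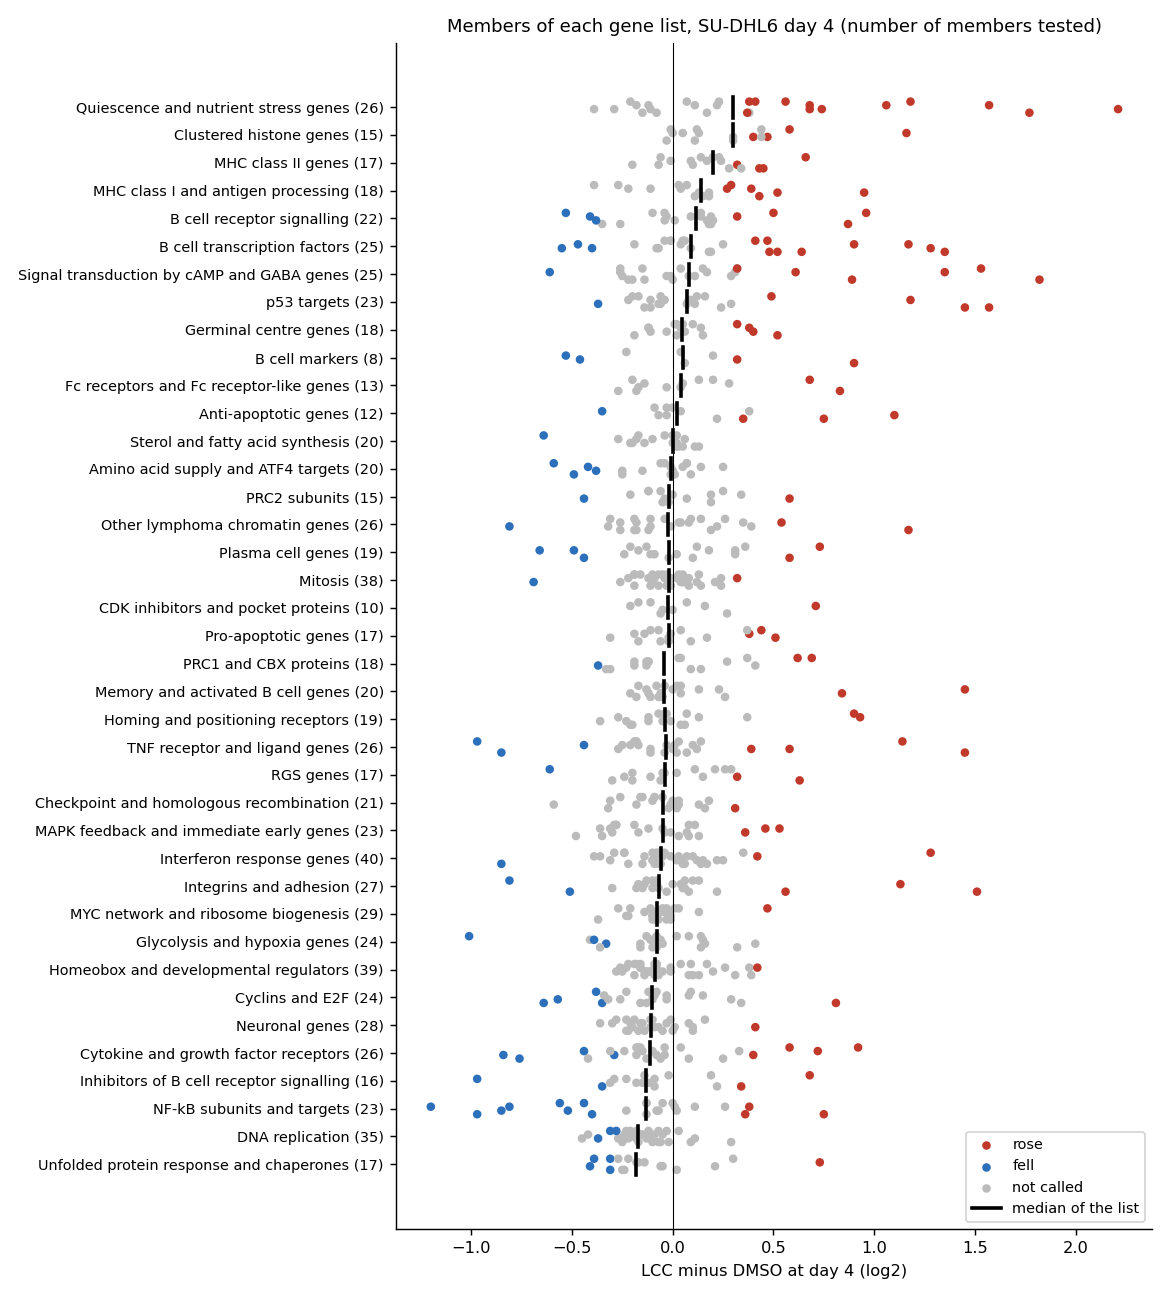
Change with LCC at day 4 (log2, x axis) of each tested member of each gene list (rows, with the number tested), in red where it rose, blue where it fell and grey where it was not called, with the list's median as a black bar. The quiescence and nutrient stress list and the histone list sit highest, both with a median of 0.30, and the NF-kB list holds 8 falls.

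The rises of day 4 were largely found again at day 6, and at day 2 in a share that depended on 1 DMSO array. Each day was measured against DMSO arrays of its own day. Of the 1096 genes that rose at day 4, 610 (55.7%) also rose at day 2, where 816 genes or 4.32% of those tested rose, and 882 (80.5%) also rose at day 6, where 1924 or 10.2% did. They made up 74.8% of the day 2 rises and 45.8% of the day 6 rises. Without DMSO day 2 replicate A, 345 genes rose at day 2 and 321 of them were among the 1096, which is 29.3% of the 1096. The median change of the 1096 genes was 0.43 at day 2, 0.58 at day 4 and 0.62 at day 6. Without DMSO day 2 replicate A the median at day 2 was 0.31.

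The falls of day 4 were mostly not called on the other days. Of the 494 genes that fell at day 4, 8 (1.62%) also fell at day 2, where 74 genes or 0.392% fell, and 163 (33.0%) fell at day 6, where 1453 or 7.69% did. Their median change was -0.00 at day 2 and -0.17 at day 6, against -0.43 at day 4. Without DMSO day 2 replicate A the median at day 2 was -0.10, and 5 of the 494 were among the 12 genes that fell in all. In that fit 422 of the 494 (85.4%) were lower with LCC at day 2, against 256 (51.8%) with the array kept. At day 6 410 (83.0%) were lower. No such share was computed over all genes. Of the 206 that fell without DMSO day 4 replicate C, 87 (42.2%) fell at day 6. TRIP6, GNPDA1, LAT2 and LTA were among the lasting ones, at -1.25, -1.44, -1.42 and -0.89 at day 6, while PKM, DOK3, SMARCB1 and CLPTM1 were at -0.00, -0.13, -0.01 and -0.38 and were not called there.

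The test of the day itself called few genes, 18 for day 4 against day 2 (0.0953% of those tested, 12 larger and 6 smaller at day 4) and 40 for day 6 against day 4 (0.212%, 35 and 5). At an unadjusted p below 0.05 they numbered 1960 and 2507. Both tests use the day 4 arrays, so they are not independent. The counts moved with single arrays, to 150 and 311 without DMSO day 4 replicate B. For day 4 against day 2 the balance also turned, to 24 larger and 126 smaller without that array and to 32 and 70 without DMSO day 2 replicate C. Centring on bright genes moved the median over all genes of the day 4 minus day 2 difference from -0.07 to 0.05 and the larger changes to 45 of 54 (83.3% against 66.7%), and for day 6 against day 4 to 270 of 485 (55.7% against 87.5%).

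SESN3 grew most between day 2 and day 4, from -0.09 ± 0.19 to 2.21 ± 0.19, a difference of 2.30, followed by TMEM200A (0.70 to 2.48), SH3BP5 (0.48 to 1.74), ABAT (0.69 to 1.82) and AGO4 (0.78 to 1.80). For SESN3, SH3BP5 and AGO4 the mean of the probe sets did not give a call. The DMSO level of SESN3 was itself lower at day 4 than at day 2, as given above. The day 2 DMSO arrays include replicate A, the array that stood apart. ALPL, TRIP6, AK5, LAT2 and CCDC106 led in the other direction, by -1.48, -0.90, -0.79, -0.74 and -0.74, and of these only TRIP6 stayed called with each array left out. From day 4 to day 6 the apolipoprotein gene APOD went from 0.10 to 1.81, TMEM200A from 2.48 to 4.14, FCRL4 from 0.83 to 2.47, TAPT1-AS1 from 1.25 to 2.61 and the plexin PLXNB2 from 0.25 to 1.52. MNS1, FOS, CLECL1, SGK1 and ACP1 moved down, from -0.44, -0.29, 0.64, -0.34 and 0.14 to -1.42, -1.25, -0.24, -1.16 and -0.45.

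**Figure D4:**
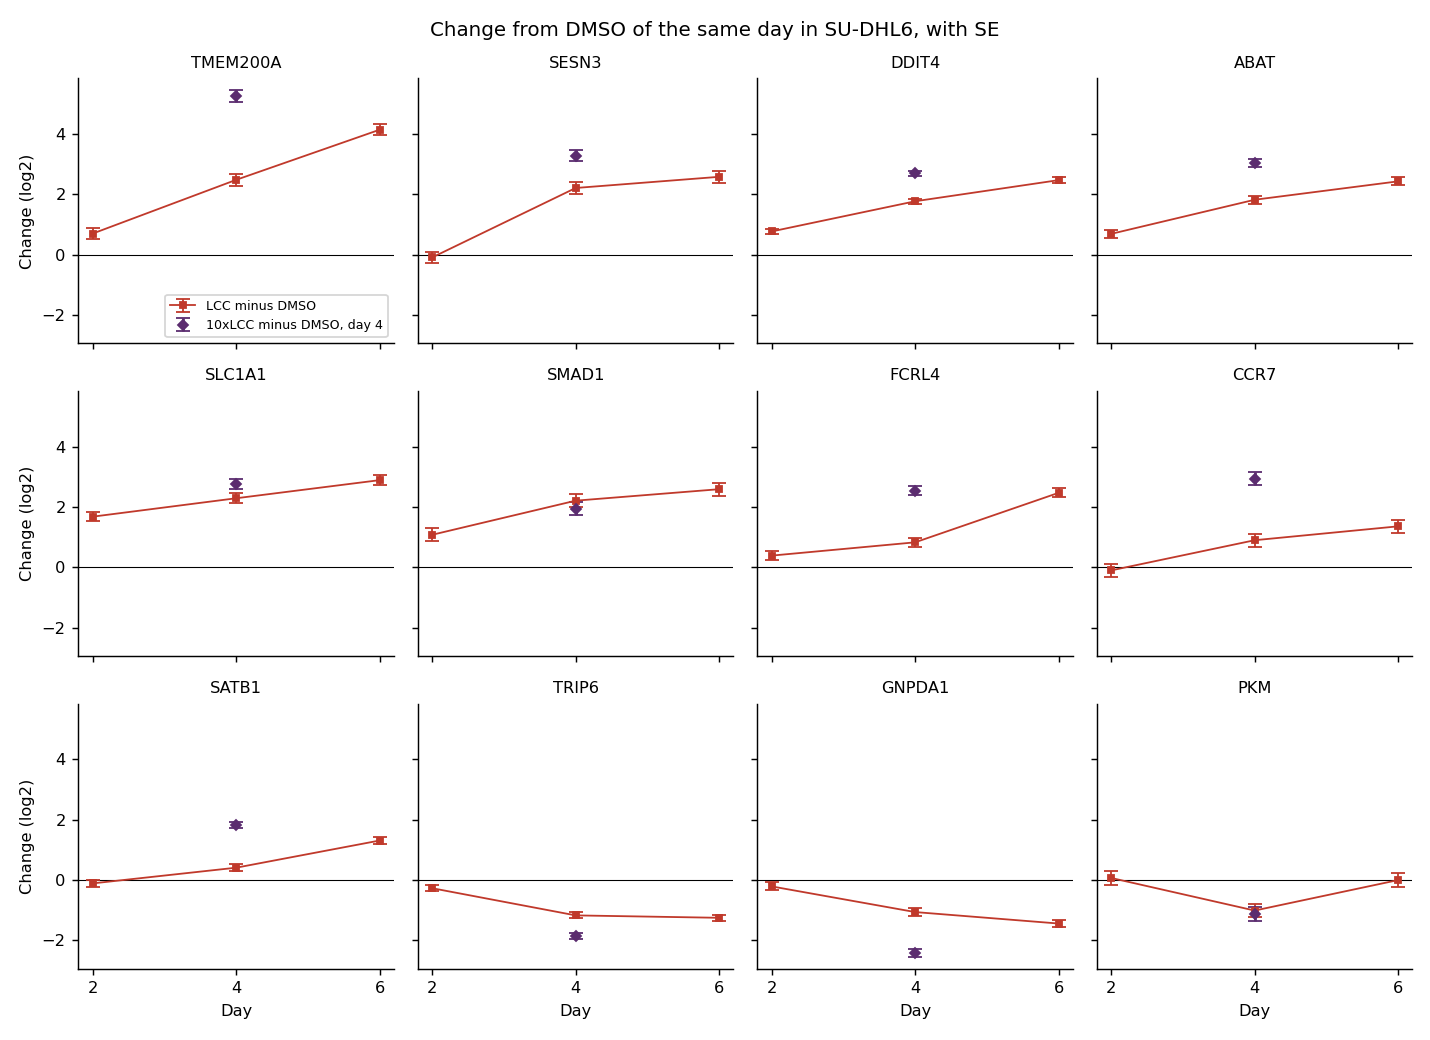
Change from the DMSO arrays of the same day in SU-DHL6 (log2, y axis, with SE) for 12 genes at days 2, 4 and 6 with LCC (red line) and at day 4 with 10xLCC (purple diamond). TMEM200A climbs from 0.70 through 2.48 to 4.14 while 10xLCC is already at 5.25 on day 4, SMAD1 is at 2.21 with LCC and 1.95 with 10xLCC, and PKM is away from 0 at day 4 only.

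At day 4 the higher dose was compared with the low dose directly, without the DMSO arrays that both doses share. It called 604 genes, 3.20% of those tested, with 382 higher and 222 lower at 10xLCC, and 50 and 2 of them at least 2-fold. The lower calls were the less stable, at 66 to 119 with any of the 6 arrays left out, against 230 to 270 higher. Leaving out any of the 6 arrays (LCC or 10xLCC replicate A, B or C) left 317 to 385, and centring on bright genes gave 1267, with 77.0% higher in place of 63.2%. With the actin difference as a covariate 409 of 836 (48.9%) were higher. Of the 1096 genes that rose at LCC 164 (15%) were higher still at 10xLCC and 7 lower, and of the 494 that fell 41 (8.30%) were lower still and 8 higher. Among all 18895 genes tested 382 were higher and 222 lower. The LCC arrays entered both the choice of the 1096 and 494 genes and the dose test, so these shares depend on that choice. A further 384 of the 604 were not called at LCC.

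The leading genes differed in how far the higher dose took them. TMEM200A lay at 9.50, 9.33 and 9.24 at 10xLCC against 6.67, 6.59 and 6.47 at LCC (2.78 ± 0.19, adjusted p = 9.4e-10, limma), RAPGEF2 at 10.54, 10.69 and 10.59 against 8.51, 8.45 and 8.29 (2.19 ± 0.16) and CCR7 at 7.72, 7.55 and 7.97 against 5.79, 5.42 and 5.92 (2.04 ± 0.21). For SEPTIN8, a cytoskeletal septin, and ATXN1, a nuclear repressor, the LCC values were not called against DMSO (0.46 and 0.21), and 10xLCC was above LCC by 2.21 and 2.16. FCRL4 and SATB1 were higher at 10xLCC by 1.71 ± 0.15 and 1.41 ± 0.11, ABAT by 1.22 ± 0.13 and DDIT4 by 0.91 ± 0.09. SMAD1, AIG1, PON2 and ZNF521 differed between the doses by -0.26, -0.05, -0.08 and -0.01 with SE of 0.12 to 0.24, and none was called. GNPDA1, MNS1, BTLA, AQP4 and IL17RB were lower at 10xLCC by the most, at -1.35, -1.09, -0.88, -0.87 and -0.80, and HNRNPLL was higher by 1.28 ± 0.22, at 5.82, 5.89 and 5.89, next to its DMSO arrays. CDKN1A, not called at LCC, was higher at 10xLCC by 0.72 ± 0.12, and CHEK1 lower by -0.59 ± 0.13.

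The response at day 4 differed between SU-DHL6 and the other lines with the Y641 mutation, each at its own LCC. A model over the arrays of all 4 lines called 1471 of 19224 genes (7.65%) for the SU-DHL6 change minus the mean change in WSU-DLCL2 and Karpas422, 768 with a more positive and 703 with a more negative change in SU-DHL6. Of the 1096 genes that rose in SU-DHL6, 800 (73.0%) were higher with LCC in WSU-DLCL2 and 884 (80.7%) in Karpas422. Their median changes were 0.31 and 0.26, against -0.01 and -0.03 over all genes in these lines, and 0.06 in Pfeiffer. In WSU-DLCL2 518 of them were called as risen and 87 as fallen, and in Karpas422 378 and 8. For the 494 falls the medians were -0.07, -0.16 and -0.01 in WSU-DLCL2, Karpas422 and Pfeiffer. In WSU-DLCL2 116 of these were called as fallen and 64 as risen, and in Karpas422 98 and 13. Over all 19224 genes tested 2648 were called as risen and 1972 as fallen in WSU-DLCL2, and 1079 and 633 in Karpas422.

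Among genes that rose in SU-DHL6, SMAD1 had the largest difference, with 2.21 ± 0.21 against 0.12 ± 0.20 in WSU-DLCL2 and 0.31 ± 0.20 in Karpas422 (difference 2.00 ± 0.24, adjusted p = 1.0e-09, limma). TMEM200A (1.83 ± 0.20), ZNF521 (1.71 ± 0.23), SLC1A1 (1.70 ± 0.19), PON2 (1.66 ± 0.17) and DDIT4 (1.48 ± 0.18) also rose further in SU-DHL6, as differences from the mean of the other lines. ABAT rose in all 3 lines, by 1.82, 2.25 and 1.81, and its difference was not called (-0.21 ± 0.18). The other genes with the largest differences had hardly moved in SU-DHL6. The immediate early gene EGR1 was at -0.04 there against -4.74 in WSU-DLCL2 and -1.79 in Karpas422, RGS1 at 0.26 against -5.53 and -0.14, the activation marker CD69 at 0.13 against -3.28 and -0.40, and CHAC1, which degrades glutathione, at 0.25 against -2.10 and -1.21.

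In the opposite direction RSAD2, an antiviral interferon response gene, was at -0.22 in SU-DHL6 and at 1.15 and 2.36 in WSU-DLCL2 and Karpas422, and CPNE5 at -0.64, 1.30 and 1.16. EHD3, FCRL3 and PDZRN4 were at -0.32, 0.04 and -0.01 in SU-DHL6, against 3.07, 2.56 and 1.59 in WSU-DLCL2 and -0.01, 0.91 and 1.72 in Karpas422. CNR1 rose in all 3 lines, by 0.93 in SU-DHL6 against 1.82 and 2.90 (difference -1.43 ± 0.19). CDKN1B, up by 0.71 in SU-DHL6, was at -1.15 in WSU-DLCL2 and 0.51 in Karpas422 (difference 1.03 ± 0.22).

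**Figure D5:**
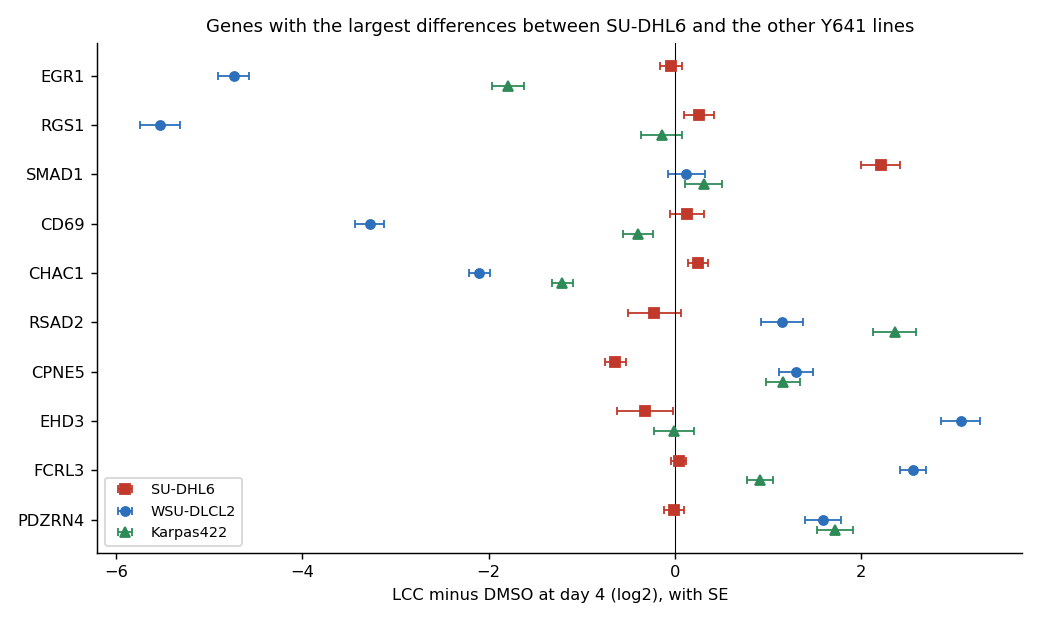
LCC minus DMSO at day 4 (log2, x axis, with SE) in SU-DHL6 (red squares), WSU-DLCL2 (blue circles) and Karpas422 (green triangles) for the 10 genes with the largest called differences between SU-DHL6 and the mean of the other lines. Only SMAD1 is far from 0 in SU-DHL6 alone, at 2.21, and EGR1 and RGS1 are far below 0 in WSU-DLCL2, at -4.74 and -5.53.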

How the data were processed

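Per the labels, total RNA was purified with the RNeasy Mini Kit with DNase digestion, amplified, labelled with biotin and hybridised to 1 array per sample. The deposited values are linear intensities between 5.79 and 31846, which the authors normalised with GCRMA per the submitters' processing notes. No version was stated in the labels used here. GCRMA corrects background by probe sequence and equalises the arrays' distributions, so a change common to most genes would be removed. Their number limits the precision, at 3 arrays per group.

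Here log2 was taken of the deposited intensities with no pseudocount. Of 54675 probe sets 41097 name 1 gene, 1801 several and 11777 none in the platform annotation, and 19735 of 19775 genes matched RefSeq. Each of the 10523 genes with several probe sets was represented by its probe set of highest mean level across the series. Genes with a log2 level of at least 4 on at least 3 arrays were tested with limma 3.58.1 (lmFit, eBayes) in R 4.3.3, with Benjamini-Hochberg adjustment over all genes tested and calls at an adjusted p below 0.05. The fit held the 27 SU-DHL6 arrays in 9 groups (18 residual degrees of freedom), and that between lines the arrays of all 4 lines in 36 groups. Tables and figures used Python 3.11.15, pandas 2.3.3 and matplotlib 3.10.9, and the fits were tested on simulated data. Promoter sequences and gene names are RefSeq's.

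Genes were named by a rule: the 15 largest rises and falls with groups that do not overlap, in each list, at most 5 members, taken by smallest p, the 5 largest called differences each way in the other comparisons, and 21 genes in every case. The members and lists were chosen with earlier results of these data known. RUNX3, SPI1 and SPIB fall outside the rule. Alternatives were other filters, probe set rules, centring, variance models, a covariate, a block, the 6 arrays alone, a test against a change of 0.5, and each array left out. The fits without DMSO day 2 replicate A or DMSO day 4 replicate C for the overlap of days, and the list counts under each alternative, were chosen after seeing the data.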

Additional observations from a re-analysis of the deposited data

Results flagged for a closer look

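The effect of LCC in SU-DHL6 differed between day 4 and day 2 in 18 genes, by a direct test of the difference between the days. The differences (log2) were 2.30 for SESN3, 1.78 for TMEM200A, 1.25 for SH3BP5, 1.13 for ABAT and 1.02 for AGO4. In the other direction they were -1.48 for ALPL, -0.90 for TRIP6, -0.79 for AK5, -0.74 for LAT2 and -0.74 for CCDC106. The level of SESN3 in the DMSO arrays of SU-DHL6 was itself lower at day 4 than at day 2.

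Between day 6 and day 4 it differed in 40 genes by the same kind of test. The differences were 1.70 for APOD, 1.67 for TMEM200A, 1.64 for FCRL4, 1.36 for TAPT1-AS1 and 1.28 for PLXNB2. They were -0.98 for MNS1, -0.96 for FOS, -0.88 for CLECL1, -0.82 for SGK1 and -0.59 for ACP1.

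Between SU-DHL6 and the mean of WSU-DLCL2 and Karpas422 the effect at day 4 differed in 1471 genes. The differences were 3.23 for EGR1, 3.09 for RGS1, 2.00 for SMAD1, 1.97 for CD69 and 1.91 for CHAC1. They were -1.97 for RSAD2, -1.87 for CPNE5, -1.85 for EHD3, -1.70 for FCRL3 and -1.66 for PDZRN4. The level of EGR1 in the DMSO arrays of SU-DHL6 was itself higher at day 4 than at day 2, by 2.10.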

How the results depend on the processing

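The 1590 calls at day 4 became 2530 when every probe set was tested by itself (of 38301) and 120 against a change of 0.5 (116 up, 4 down), and stayed within 1.5 times under the other alternatives. They ranged from 1075 (without DMSO replicate C) to 1684 (without DMSO replicate B) with an array left out. Centring on bright genes gave the largest count within 1.5 times, 2366 (1646 up, 720 down). The dose comparison's 604 calls became 1267 with centring on bright genes, and 317 to 385 with any of its 6 arrays left out. For day 4 against day 2, the 18 calls became 10 with probe sets averaged, 54 with centring and 36 with trend and robust variances (15 larger, 21 smaller). With an array left out they ranged from 8 to 150, the latter without DMSO day 4 replicate B, with 102 without DMSO day 2 replicate C and 41 without DMSO day 2 replicate A or B. Without LCC day 4 replicate C there were 12, and without any of the other 7 arrays 8 to 11. For day 6 against day 4, the 40 calls became 22, 485 and 264 (139 larger, 125 smaller) under the same settings. With an array left out they ranged from 18 to 311, the latter without DMSO day 4 replicate B, with 93 without LCC day 6 replicate A, 18 to 20 without DMSO day 4 replicate C, LCC day 4 replicate B or C or LCC day 6 replicate C, and 23 to 26 without DMSO day 6 replicate A or B or LCC day 6 replicate B. The 1471 calls between lines became 2338 with every probe set and 2344 with centring, and 1050 to 1535 with an array left out. The cause of these moves was not tested. Of 3905 recomputed values of 262 named genes 1 changed sign, that of CD79B with probe sets averaged (-0.03), and 318 lost their call, 198 of them outside the test against 0.5.

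The labels do not say whether equal replicate letters pair the arrays, and these values cannot settle it. Deviations from the group means of the LCC and DMSO arrays at day 4 correlated by -0.274 for A, 0.065 for B and -0.13 for C. Between different letters the correlations ran from -0.143 (LCC C with DMSO B) to 0.298 (LCC C with DMSO A). With the letter as a replicate block the calls numbered 1519 at day 4, 549 for dose, 15 for day 4 against day 2, 43 for day 6 against day 4 and 1446 between lines.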
